A study of Homo sapiens with 12 samples.

Results

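The members described here are 8 genes whose proteins sit on the 2 sides of the Wnt transcription switch: the Groucho-related corepressors TLE1, TLE2, TLE3 and TLE4, and the coactivators BCL9, BCL9L, PYGO1 and PYGO2. They were taken by gene symbol from the 18950 genes of the deposited expression table, and all 8 were found once. The study sequenced RNA of DU145 and PC3, established lines grown from metastases of human prostate cancer, in 12 libraries. Each line was grown in DMEM with 10% fetal bovine serum and sorted on GFP, so that the brightest 10% of cells formed the Wnt/β-catenin active groups (DU145 GFP+, PC3 GFP+) and the dimmest 10% the inactive groups (DU145 GFP-, PC3 GFP-), with 3 libraries in each of the 4 groups. The sources used here name neither the construct that carries GFP nor whether the reporter lines were clones or pools, and both sorts of a line came from cells that carried it. The question was whether the transcripts of these cofactors differ between cells with the reporter on and off, and between the lines.

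In the nucleus, TCF/LEF factors stay bound to Wnt response elements whether or not the pathway is on. Without a signal they hold TLE proteins, tetramers that bring in histone deacetylases and keep the target genes silent. When β-catenin enters the nucleus it binds TCF/LEF, its first armadillo repeat holds BCL9 or BCL9L, and these adaptors connect it to the PHD finger of a Pygopus protein, which reads methylated histone H3.

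Sequences are shown for TLE2 and TLE4, genes called in a sort comparison, from the RefSeq promoter table (GRCh38.p14), which held 7 of the 8 genes with 12 start sites. Each run is the 250 bases before a start site, 5′ to 3′ in the direction of transcription, and none of the 3 holds a base of an exon in GENCODE 29. Capitals mark a match to CTTTGAA, searched with CTTTGAT on both strands as 2 forms of the TCF/LEF core.
TLE2 start 1, chr19:3047636-3047885, minus strand: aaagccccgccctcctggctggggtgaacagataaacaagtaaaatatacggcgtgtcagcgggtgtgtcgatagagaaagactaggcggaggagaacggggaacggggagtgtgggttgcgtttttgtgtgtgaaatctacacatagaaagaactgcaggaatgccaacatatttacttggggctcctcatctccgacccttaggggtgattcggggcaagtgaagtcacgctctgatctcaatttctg
TLE2 start 2, chr19:3029281-3029530, minus strand: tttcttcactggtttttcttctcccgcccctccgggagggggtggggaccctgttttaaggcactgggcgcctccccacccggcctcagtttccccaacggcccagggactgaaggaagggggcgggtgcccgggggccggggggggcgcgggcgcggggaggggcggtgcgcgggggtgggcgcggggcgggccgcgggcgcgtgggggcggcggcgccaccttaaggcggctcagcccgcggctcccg
TLE4 start 2, chr9:79572927-79573176, plus strand: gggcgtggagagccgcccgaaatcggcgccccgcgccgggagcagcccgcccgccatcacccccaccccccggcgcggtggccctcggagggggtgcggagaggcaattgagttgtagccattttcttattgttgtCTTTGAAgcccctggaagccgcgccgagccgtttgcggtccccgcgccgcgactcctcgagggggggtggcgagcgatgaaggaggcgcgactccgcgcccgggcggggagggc

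The TLE2 windows differed in base composition, with 50.8% G or C before start 1 and 77.2% before start 2, against a median of 58% over all 35116 windows of the table. The match before TLE4 start 2 lay 114 bases upstream, on the strand of the gene, and was the single match of either form in the 12 windows. Of all windows in the table, 2.26% held CTTTGAT, 3.80% held CTTTGAA and 5.94% held either. A match of 7 letters is a description of the sequence and not a binding site.

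Levels are given as CPM, the counts scaled to a common library size, taken back from the deposited log2 values. The libraries held 13453614 to 21528810 estimated counts, so 3 counts, the lowest level treated as detectable, corresponded to 0.13 to 0.233 CPM. Intervals from counts cover counting error only. In DU145 the sort effect was tied to base composition across 12510 genes (Spearman correlation with GC content -0.632, against -0.102 in PC3), and the number of genes called in DU145 went from 3389 to 887 without DU145 GFP+ 1, to 5582 without DU145 GFP+ 3 and to 167 without both DU145 GFP+ 1 and 2. PC3 GFP- 2 and 3 listed 3495 and 3491 genes at 0 counts, and the other PC3 libraries 4577 to 4819. The labels do not say that the 3 libraries of a group were separate cultures, so the p-values cover the spread between these libraries, which may be technical.

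The line names are those of the labels, and part of the line markers did not follow them. EPCAM, an epithelial adhesion molecule, reached at most 3 counts in any library, and CDH1, which encodes E-cadherin, at most 11 counts. KRT8, an epithelial keratin, averaged 1753 CPM in DU145 GFP+ and 2755 CPM in DU145 GFP-, against 18.1 and 26.1 CPM in the PC3 sorts. KRT18, its partner keratin, averaged 1375 and 1956 CPM in DU145 GFP+ and GFP-, and 369 and 409 CPM in the PC3 sorts. PC3 is known for losing CTNNA1, the gene of α-catenin, yet the libraries labelled PC3 averaged 387 (GFP+) and 408 (GFP-) CPM of it. The luminal genes KLK3 and TMPRSS2 stayed at 1 count or fewer. Of the markers of other cell types found in the table, PTPRC and LYZ (leukocytes), COL1A2 (fibroblasts) and PECAM1 (endothelium) reached at most 3 counts, PDGFRB and VWF at most 9, CDH5 at most 25 and COL1A1 at most 29, or 1.65 CPM.

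**Figure D1:**
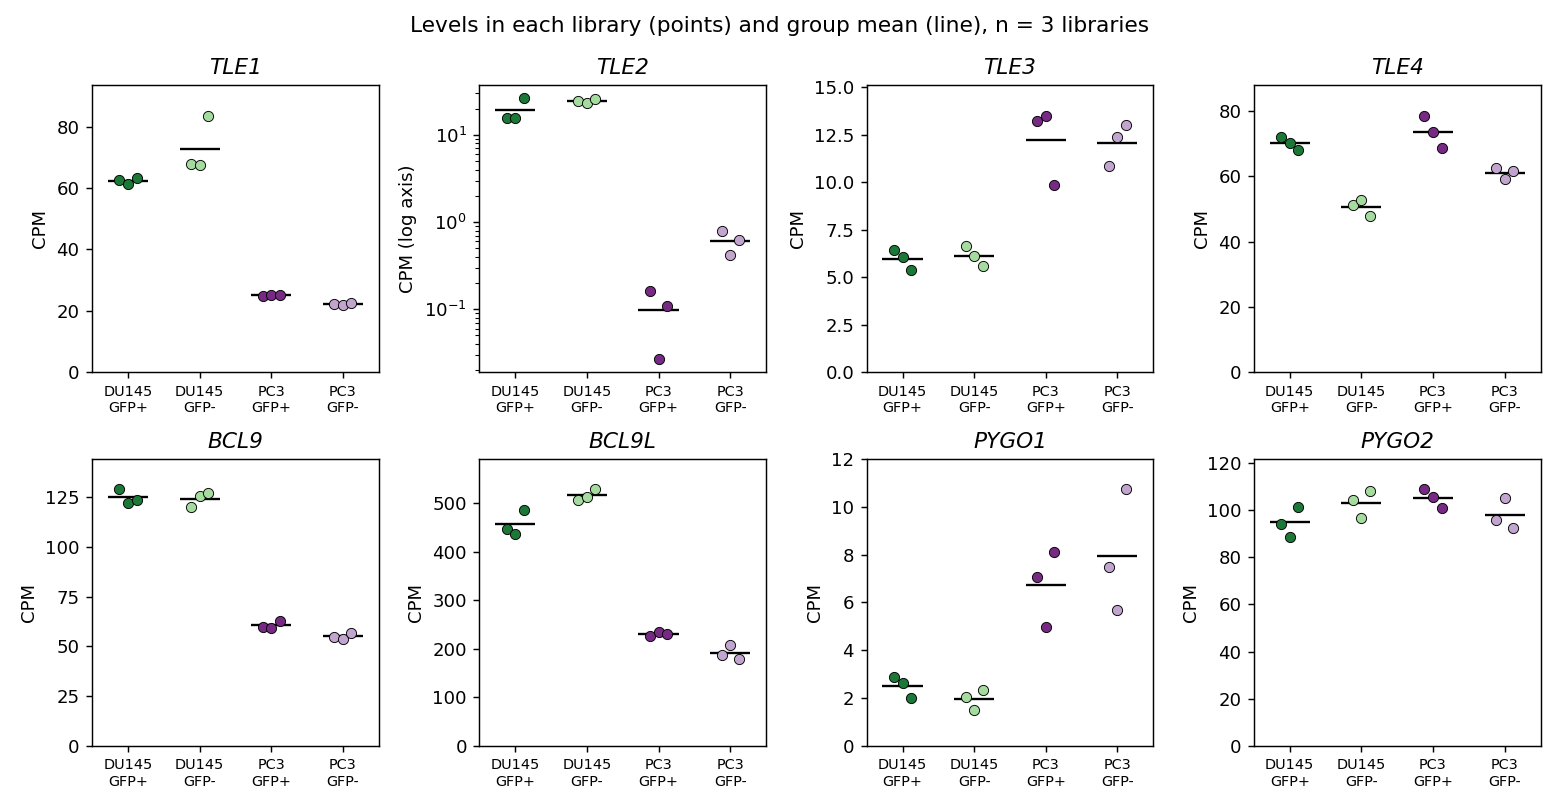
CPM of each of the 8 genes in every library (points) with the group mean (line), 3 libraries per group, on linear axes from 0 except for TLE2, which has a log axis. TLE4 was higher in GFP+ than in GFP- libraries of both lines, and TLE2 was below 1 CPM in all 6 PC3 libraries.

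Beside the sort in DU145, 1 of the 8 genes passed the test, TLE4, which was higher in GFP+ cells. This is 12.5% of them, against 27.1% of all 12527 genes tested (limma, Benjamini-Hochberg adjusted p under 0.05). Groups did not overlap for 3 of the 8 (37.5%, against 40.5% of all genes). In PC3, 3 of the 8 passed (37.5%, against 9.44% of all genes): TLE4 and BCL9L were higher in GFP+ cells (2 of 8, against 4.17% of all genes) and TLE2 was lower (1 of 8, against 5.27%). TLE2, below 1 CPM in every PC3 library, met the expression minimum through its DU145 libraries alone. With PC3 filtered and fitted alone, TLE2 was not tested and 0 of the other 7 passed (against 7.57% of all genes). Groups did not overlap in PC3 for 5 of the 8 (62.5%, against 30.4%). The median log2 fold change of the 8 genes was -0.08 in DU145 and 0.12 in PC3, beside -0.01 and -0.02 over all genes. The sort effects differed between the lines for 2 of the 8, TLE2 with the more positive effect in DU145 and BCL9L with the more negative one, against 15.9% of all genes (7.06% and 8.82% in these directions). In bulk RNA a difference in the share of cells that express a gene cannot be told apart from a difference in RNA per cell.

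**Figure D2:**
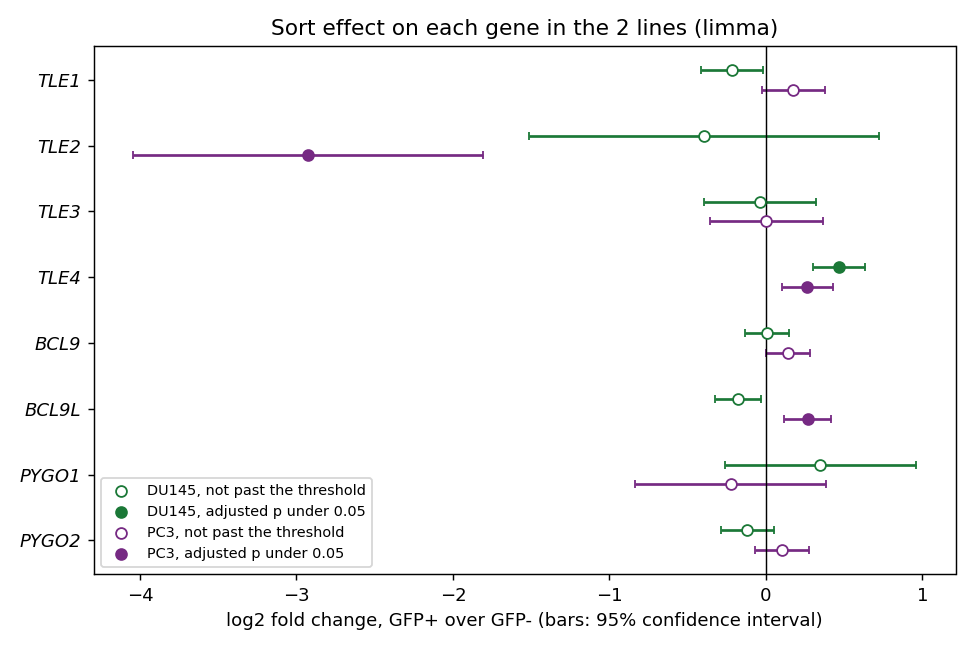
Log2 fold change of GFP+ over GFP- for each gene in the 2 lines, with 95% confidence intervals from limma. Filled points passed an adjusted p of 0.05: TLE4 in both lines, and TLE2 and BCL9L in PC3.

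TLE4 (chromosome 9, 79571773-79726882, plus strand in GRCh38) encodes a full-length Groucho corepressor and was the 1 gene of the 8 that passed in both lines. In DU145 GFP+ its libraries read 72.0, 70.2 and 68.0 CPM and in DU145 GFP- 51.3, 52.8 and 48.0 CPM. The sorts did not overlap, and the lowest GFP+ library lay above the highest GFP- library by more than the range within either. The difference was 0.47 ± 0.08 (log2 fold change ± SE, 1.38-fold, limma adjusted p = 0.00195). Without both DU145 GFP+ 1 and 2 it was 0.43, with a limma adjusted p of 0.106. Where such a fit leaves 1 library in a group, that library is assumed to vary like the other groups.

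In PC3, TLE4 read 78.6, 73.5 and 68.7 CPM in GFP+ libraries and 62.5, 59.2 and 61.7 CPM in GFP- libraries. The sorts again did not overlap, and the difference was 0.27 ± 0.08 (1.20-fold, limma adjusted p = 0.0444). This value lay close to the threshold: the call held in 12 of 27 alternative settings, in which the fold change ran from 0.22 to 0.31 and the limma adjusted p from 0.0197 to 0.405. It was lost without PC3 GFP+ 1 (adjusted p = 0.198 by limma) and without PC3 GFP+ 2 (0.123), and without each of PC3 GFP- 1 (0.0934), 2 (0.118) and 3 (0.077). Leaving out any 1 DU145 library except DU145 GFP+ 3 also ended it, at 0.0513 to 0.0669. The sort effects of the lines differed by 0.20 ± 0.11 (95% interval -0.03 to 0.44, limma adjusted p = 0.203), so a larger rise in DU145 was not shown. TLE4 has a GC content of 47.3%, and after removal of the trend with GC content and length it was still higher by 0.36 in DU145 (limma adjusted p = 0.00164) and by 0.23 in PC3 (0.0201).

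The genes around TLE4 were read after its values were seen. Of 5 neighbours tested, TLE1 among them, GNAQ, the gene of a G protein subunit, was higher in DU145 GFP+ (0.76 ± 0.18, limma adjusted p = 0.0107) and PSAT1, an enzyme of serine synthesis, was lower (-0.57 ± 0.07, 0.000217). Their median log2 fold change was 0.47 in DU145 and 0.01 in PC3, where the smallest limma adjusted p of the 5 was 0.148 (GNAQ, -0.44).

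TLE1 (chromosome 9, 81583683-81689305, minus strand) lies near TLE4 and encodes a corepressor of the same build. Of the 50-base windows of the longest TLE1 transcript, 5.49% also occur in TLE4 or in the pseudogene TLE1P1, so a small part of their reads could be assigned to either. TLE1 read 62.6, 61.4 and 63.4 CPM in DU145 GFP+ and 67.7, 67.4 and 83.7 CPM in DU145 GFP-, where library 3 stood above the other two. Every GFP+ library was lower than every GFP- library, but the difference of -0.22 ± 0.09 missed the threshold (limma adjusted p = 0.0923), and it was -0.02 with the GC and length trend removed. PC3 ran the other way without passing: 24.9, 25.0 and 25.2 CPM in GFP+ and 22.0, 21.9 and 22.5 CPM in GFP-, a log2 difference of 0.18 ± 0.09 (limma adjusted p = 0.286). The difference between the lines' sort effects was -0.39 ± 0.13, with a limma adjusted p of 0.0567, and passed in 4 of 26 alternatives. These were the replicate block (limma adjusted p = 0.0425), equal library medians (-0.52, 0.0292), and the fits without DU145 GFP+ 3 (0.0452) and without DU145 GFP- 2 (0.046).

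TLE2 (chromosome 19, 2997638-3047635, minus strand), another full-length corepressor, showed the largest contrast between the lines. In PC3 it was at the limit of detection: GFP+ libraries held 3, 0 and 2 counts (0.161, 0.027 and 0.108 CPM with the offset of 0.5 counts) and GFP- libraries 30 counts in all (0.786, 0.418 and 0.627 CPM). The sorts did not overlap. From the counts, PC3 GFP+ was 7.34-fold lower (95% exact interval 2.82 to 24.2), and limma on the deposited values gave a log2 difference of -2.93 ± 0.52 with an adjusted p of 0.0029. This standard error pools all 4 groups, the DU145 groups of 221 to 402 counts a library included. With voom on recovered counts it was 0.87, and the call was lost (-2.88, limma adjusted p = 0.0517). TLE2 also met the expression minimum through its DU145 libraries alone. The size of the difference depends on the offset and was -1.18 with 8 counts in place of 0.5 (limma adjusted p = 0.00328). Without PC3 GFP- 2 and 3, which leaves 1 GFP- library, it was -3.34 (limma adjusted p = 0.0252).

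In DU145, by contrast, TLE2 was well above the limit, at 15.7, 15.7 and 26.6 CPM in GFP+ and 24.4, 23.5 and 26.0 CPM in GFP- libraries. DU145 GFP+ 1 and 2 were low, and DU145 GFP+ 3 lay above all 3 GFP- libraries, so the groups overlapped. The difference was -0.40 ± 0.52 (95% interval -1.51 to 0.72, limma adjusted p = 0.581). Its standard error pools all 4 groups, the PC3 groups of 0 to 13 counts a library included. It was 0.19 with DU145 fitted alone (limma adjusted p = 0.125), 0.18 with voom (-0.42, 0.0917) and 0.22 with an offset of 8 counts (-0.38, 0.186). The lines' sort effects differed by 2.53 ± 0.73 (limma adjusted p = 0.0345), a call that held in 13 of 26 alternatives. It was lost with an offset of 8 counts (0.80, limma adjusted p = 0.0881), with quantile normalization (1.76, 0.125), with voom (2.46, 0.0743) and with eBayes without trend (0.061). Among the libraries, leaving out DU145 GFP+ 1 or 2, any 1 of the DU145 GFP- libraries, or PC3 GFP- 1 or 3 ended it, with limma adjusted p values between 0.0556 and 0.0832.

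The genes around TLE2 were then read in chromosomal order, a choice made after its values were seen. The gene next to it, TLE6, encodes a divergent Groucho relative known from the oocyte. TLE6 read 0.714, 0.994 and 0.802 CPM in PC3 GFP+ and 1.43, 2.87 and 2.42 CPM in PC3 GFP-, with no overlap, and was lower in PC3 GFP+ by 2.76-fold from 51 against 115 counts (95% exact interval 1.97 to 3.91). The limma log2 difference was -1.37 ± 0.27 (adjusted p = 0.00537), and in DU145, at 5.94 to 7.26 CPM in all 6 libraries, -0.06 ± 0.27 (0.878). On the other side AES, also named TLE5, encodes a short Groucho protein, and its log2 differences were -0.17 ± 0.11 in PC3 (limma adjusted p = 0.387) and -0.20 ± 0.11 in DU145 (0.165). Of the 8 neighbours above the expression minimum, TLE6 was the 1 gene that fell in PC3 and none rose; in DU145 GNA11 (-0.25) and NCLN (-0.42) fell and none rose.

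**Figure D3:**
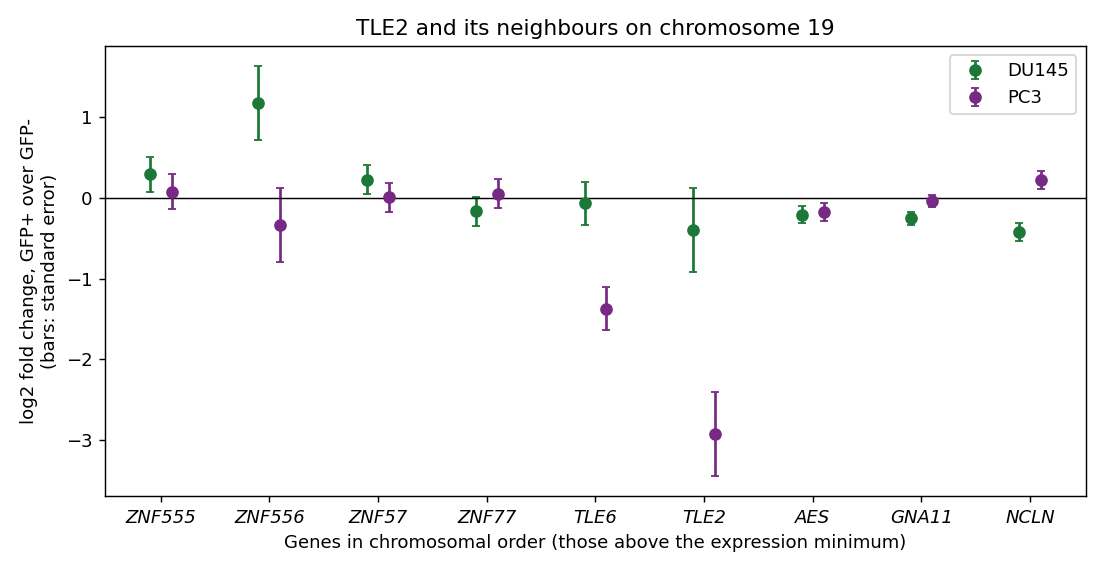
Log2 fold change of GFP+ over GFP- for TLE2 and the 8 neighbouring genes above the expression minimum, in chromosomal order, with standard errors. In PC3, TLE2 (-2.93) and TLE6 (-1.37) lay below the other genes shown.

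TLE3 (chromosome 15, 70047790-70098176, minus strand), the remaining full-length corepressor, did not separate the sorts. It read 6.40, 6.06 and 5.39 CPM in DU145 GFP+ and 6.64, 6.10 and 5.56 CPM in DU145 GFP-, a log2 difference of -0.04 ± 0.17 (95% interval -0.39 to 0.32, limma adjusted p = 0.888). In PC3 it read 13.2, 13.5 and 9.86 CPM in GFP+ and 10.9, 12.4 and 13.0 CPM in GFP-, a log2 difference of 0.00 ± 0.17 (95% interval -0.35 to 0.36, limma adjusted p = 0.993). PC3 GFP+ 3 was the lowest PC3 library, and the sorts overlapped in both lines.

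Set on a common scale of CPM per kb of annotated exons, the make-up of the TLE family differed between the lines. In DU145 GFP+ TLE1 made up 48.0% ± 2.0 (SD, n = 3) of the summed TLE1 to TLE4 level, TLE4 32.3% ± 2.5 and TLE2 17.8% ± 4.7, while in DU145 GFP- the shares were 53.6% ± 3.1, 22.5% ± 2.5 and 22.1% ± 0.5. In PC3 TLE4 led, with 59.6% ± 1.2 in GFP+ and 57.0% ± 0.8 in GFP-, followed by TLE1 with 33.9% ± 1.8 and 34.5% ± 0.4. TLE3 stayed a minor part, near 1.8% in the DU145 sorts and at 6.38% (GFP+) and 7.31% (GFP-) in PC3. The summed level was 26.6 ± 1.5 and 27.6 ± 1.9 CPM per kb in DU145 GFP+ and GFP-, and 15.1 ± 0.7 and 13.1 ± 0.3 in PC3. With the longest transcript as the length, TLE4 took 37.6%, 26.8%, 65.3% and 62.7% in DU145 GFP+, DU145 GFP-, PC3 GFP+ and PC3 GFP-, and TLE1 41.9%, 47.9%, 27.9% and 28.4%. TLE1 still led in DU145 and TLE4 in PC3. These shares are descriptions without a test.

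**Figure D4:**
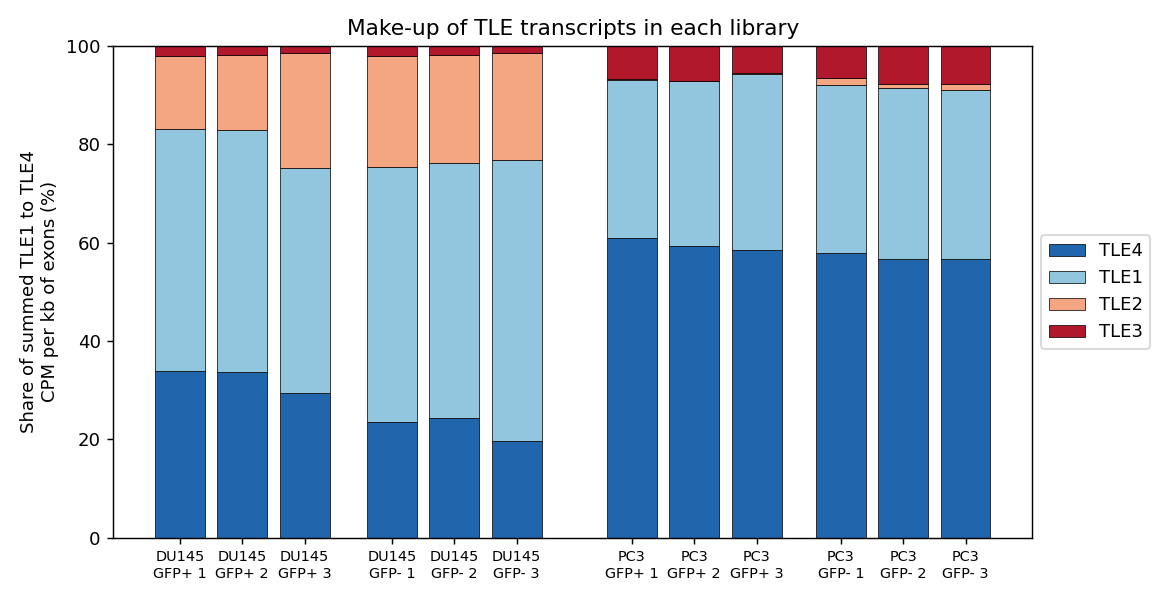
Share of each TLE gene in the summed CPM per kb of exons of TLE1 to TLE4, one bar per library. TLE4 takes 58.5% to 60.9% in PC3 GFP+ libraries and 19.7% to 24.4% in DU145 GFP- libraries, and TLE2 is visible in DU145 but hardly in PC3.

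BCL9 (chromosome 1, 147541412-147626216, plus strand) encodes the founding β-catenin adaptor of the coactivator complex. It read 129, 122 and 124 CPM in DU145 GFP+ and 120, 126 and 127 CPM in DU145 GFP-. The sorts overlapped, and the log2 difference was 0.01 ± 0.07 (95% interval -0.13 to 0.15, limma adjusted p = 0.945). In PC3 GFP+ it read 59.7, 59.5 and 63.0 CPM and in PC3 GFP- 54.7, 53.8 and 56.5 CPM. There the groups did not overlap, but the log2 difference of 0.14 ± 0.07 missed the threshold (limma adjusted p = 0.216).

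BCL9L (chromosome 11, 118893875-118925608, minus strand), the paralogue that serves as an alternative adaptor, had the highest level of the 8 genes in DU145. It read 446, 437 and 486 CPM in DU145 GFP+ and 507, 513 and 528 CPM in DU145 GFP-. All GFP+ libraries were lower, with a log2 difference of -0.18 ± 0.07 that missed the threshold (limma adjusted p = 0.0679). It passed without DU145 GFP+ 3 (0.022) or without PC3 GFP- 2 (0.0364), and was 0.02 with quantile normalization. BCL9L has a GC content of 62.6%, and with the GC and length trend removed its DU145 value was -0.06 (limma adjusted p = 0.509). In PC3 the order was the opposite: 227, 234 and 229 CPM in GFP+ and 187, 209 and 180 CPM in GFP-, a rise of 0.27 ± 0.07 (1.20-fold, limma adjusted p = 0.0275). The difference between the lines' sort effects was -0.45 ± 0.10 (limma adjusted p = 0.00941) and passed in 25 of 26 alternatives, the exception being the fit without both DU145 GFP+ 1 and 2 (-0.35, limma adjusted p = 0.109).

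The PC3 rise of BCL9L was less secure. It passed in 17 of 27 alternatives and was lost without any 1 of the PC3 GFP+ libraries (limma adjusted p = 0.08, 0.102 and 0.0756) and without PC3 GFP- 1 (0.101) or 3 (0.0824). BCL9L also overlaps CXCR5, the gene of a B cell chemokine receptor, on the opposite strand, and 39.2% of the 50-base windows of its longest transcript occur on either strand in a transcript of CXCR5 or of the microRNA gene MIR4492. The sources used here do not say whether counting used strand. The BCL9L count was whole in 3 of 12 libraries, but summed with the CXCR5 count it was whole in every library. Reads of the overlap were thus divided between the 2 genes without strand separating them. The CXCR5 values are in part reads taken from BCL9L or the reverse, and which gene they came from cannot be told apart. CXCR5 was listed at 0.035, 1.59 and 11.7 CPM in DU145 GFP+, 13.5, 0.032 and 7.68 CPM in DU145 GFP-, 6.42, 0.027 and 10.0 CPM in PC3 GFP+, and 18.2, 23.6 and 18.8 CPM in PC3 GFP-. In 3 libraries, 1 in each group but PC3 GFP-, CXCR5 was at 0 counts and the BCL9L count was whole. PC3 GFP- had the highest CXCR5 values.

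With the counts of both genes summed, a calculation chosen after seeing the data, PC3 GFP+ held 233, 234 and 239 CPM and PC3 GFP- 205, 232 and 198 CPM. The sorts still did not overlap, with PC3 GFP- 2 just below PC3 GFP+. The log2 difference was then 0.16 with a limma adjusted p of 0.22, so the PC3 call was lost, while the difference between the lines stayed past the threshold (-0.34, limma adjusted p = 0.0393). In DU145 the summed counts gave -0.19 (limma adjusted p = 0.0709).

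**Figure D5:**
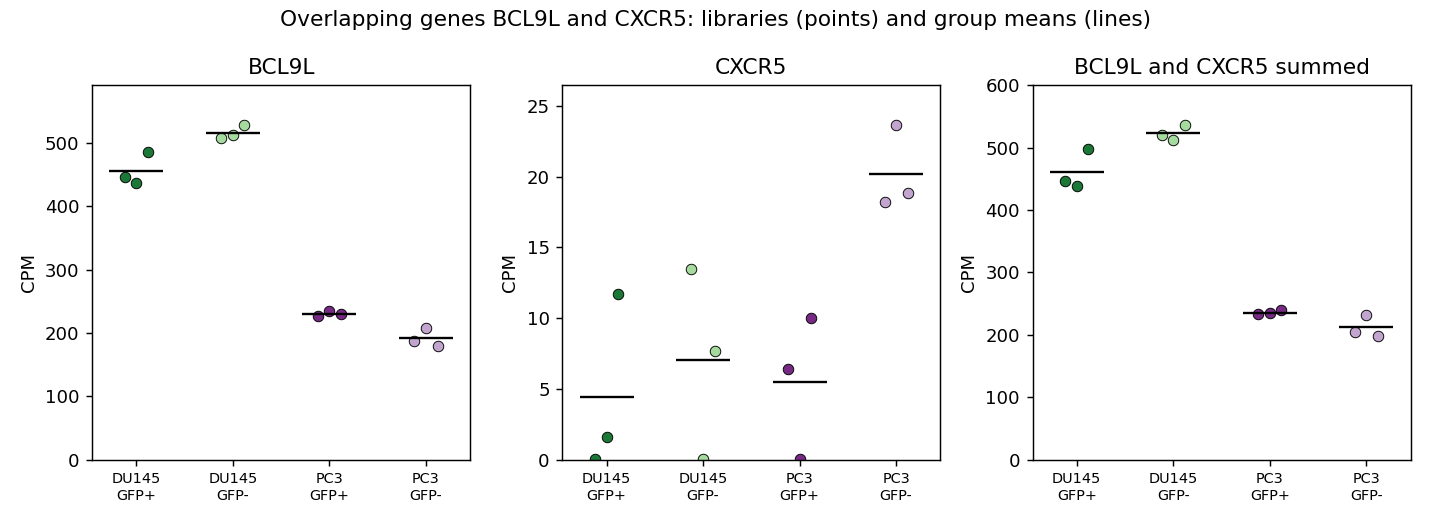
CPM of BCL9L, of CXCR5 and of their summed counts in each library (points) with group means (lines). CXCR5 was highest in PC3 GFP- (18.2 to 23.6 CPM), where BCL9L was lowest (180 to 209 CPM).

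The Pygopus pair split into 1 abundant and 1 scarce gene. PYGO2 (chromosome 1, 154957026-154963853, minus strand), the form expressed in most tissues, read 94.3, 88.8 and 101 CPM in DU145 GFP+, 104, 96.7 and 108 CPM in DU145 GFP-, 109, 105 and 101 CPM in PC3 GFP+, and 95.7, 105 and 92.4 CPM in PC3 GFP-. The sorts overlapped in both lines. Its log2 differences were -0.12 ± 0.08 in DU145 (95% interval -0.29 to 0.05, limma adjusted p = 0.262) and 0.10 ± 0.08 in PC3 (95% interval -0.07 to 0.27, limma adjusted p = 0.495), and the PC3 value passed once, with the GC and length trend removed (0.15, 0.0473). The DU145 value was 0.07 with that trend removed and 0.00 with quantile normalization. PYGO2 overlaps the abundant gene SHC1, on the same strand, and its estimated count was whole in 1 of 12 libraries. Of the 3097 windows of 50 bases in its longest transcript, 0 occur in a transcript of another gene.

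PYGO1 (chromosome 15, 55538890-55588947, minus strand), the relative with a narrower expression, read 2.87, 2.62 and 1.98 CPM in DU145 GFP+ and 2.03, 1.52 and 2.34 CPM in DU145 GFP-. In PC3 it read 7.07, 4.97 and 8.09 CPM in GFP+ and 7.48, 5.66 and 10.7 CPM in GFP-. Neither sort comparison passed, with log2 differences of 0.35 ± 0.28 in DU145 (limma adjusted p = 0.362) and -0.23 ± 0.28 in PC3 (0.717). The 95% intervals were -0.26 to 0.96 and -0.84 to 0.39, and the groups held 91 to 431 counts each. PYGO1 has a GC content of 34.6%, and with the GC and length trend removed its DU145 value was -0.42 ± 0.23 (limma adjusted p = 0.214).

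Between the lines, 7 of the 8 genes differed (87.5%, against 77.5% of all genes tested), 4 higher in DU145 (against 38.3% of all genes) and 3 lower (39.2%). The libraries of the lines did not overlap for 6 of the 8 (75%, against 46.9%). DU145 held 2.86-fold more TLE1 (log2 1.52 ± 0.07), 2.16-fold more BCL9 (1.11 ± 0.05) and 2.31-fold more BCL9L (1.21 ± 0.05). TLE2 was higher by 71.9-fold from 1983 against 35 counts (95% exact interval 51.5 to 104, limma log2 6.65 ± 0.37). Lower in DU145 were TLE3 (-1.01 ± 0.12), PYGO1 (-1.71 ± 0.20) and, by a little and with overlapping groups, TLE4 (-0.17 ± 0.05, limma adjusted p = 0.0109), whose call was lost with equal library medians (-0.02). PYGO2 did not differ detectably (-0.04 ± 0.06, 95% interval -0.16 to 0.08, limma adjusted p = 0.561), except with quantile normalization (-0.12, 0.0385). The largest limma adjusted p of the other 6 genes was 3.5e-06, and each line is represented by itself alone.

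Per kb of exons, BCL9L led in DU145 (43.6 CPM per kb in GFP+, 49.3 in GFP-), followed by PYGO2, BCL9, TLE1, TLE4, TLE2, TLE3 and PYGO1, where TLE4 and TLE2 overlapped in GFP-. In PC3 PYGO2 led (28.9 in GFP+, 26.9 in GFP-), followed by BCL9L, BCL9, TLE4, TLE1, TLE3, PYGO1 and TLE2. The levels of TLE3 and PYGO1 overlapped in both PC3 sorts, and those of BCL9 and TLE4 in PC3 GFP+. With the longest transcript as the length, TLE4 stood above BCL9 in PC3 GFP+ (15.1 against 9.67 CPM per kb) and in PC3 GFP- (12.5 against 8.76). BCL9L made up 68.1% to 71.8% of the BCL9 pair as group means, and PYGO2 96.6% to 99.2% of the Pygopus pair.

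The genes around PYGO1, also read after its values were seen, shared its difference between the lines. Of 9 neighbours tested, 8 were lower in DU145 and none was higher, with a median log2 difference of -1.80, beside the 39.2% of all genes lower in DU145. The exception was PRTG, at 0.39 and not past the threshold. Of the 8, C15orf65 met the expression minimum through its PC3 libraries alone, which fixes its direction (0.368 and 0.289 CPM in DU145 GFP+ and GFP-). DYX1C1, TEX9 and MNS1 lay near the minimum in DU145, with group means of 0.48 to 1.38 CPM. PIGB, CCPG1, NEDD4 and RFX7 averaged at least 3.78 CPM in every group. Of the 8 neighbours of TLE3 that were tested, 6 were lower in DU145 and 1 higher, with a median of -0.60. For the 6 around BCL9, 4 were higher and none lower. Such sharing was not general. Around PYGO2, which did not differ detectably (-0.04), 5 of 7 neighbours were higher and none lower (median 0.53). Around TLE1 (1.52), 1 of 5 was higher and 2 were lower (median -0.17). Around BCL9L (1.21), 3 of 7 were higher and 2 lower (median 0.02). Of 8 around TLE2, 5 were higher and 2 lower (median 0.26), and of 5 around TLE4, 2 were higher and 2 lower (0.14).

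Other genes of the switch were read from lists, for which the members above are not counted. Their counts are read against all genes tested, of which 13.1% were higher and 13.9% lower in DU145 GFP+, and 4.17% higher and 5.27% lower in PC3 GFP+. Of β-catenin and the 4 TCF/LEF factors, LEF1 alone passed in either sort comparison, and it rose in both (list medians of 0.02 in DU145 and 0.13 in PC3, beside -0.01 and -0.02 over all genes). LEF1, both a partner and a known target of β-catenin, rose by 1.87 ± 0.36 in DU145 (limma adjusted p = 0.00508) and by 1.67 ± 0.36 in PC3 (0.0106), from 0.642 and 1.43 CPM to 2.21 and 4.41 CPM. CTNNB1, the β-catenin gene, stood at 0.02 ± 0.07 in DU145 and 0.16 ± 0.07 in PC3. TCF7L1, regarded as the most repressive of the factors, was at 19.7 and 27.1 CPM in DU145 GFP+ and GFP- and below 1 CPM in the PC3 group means, and TCF7 was at -0.11 and -0.37, neither past the threshold. Among 7 feedback targets above the minimum, LEF1 was again the 1 gene that rose, and none fell (medians -0.11 and -0.12). AXIN2, the usual feedback marker, was below the expression minimum, with group means of 1.03, 0.567, 0.841 and 0.727 CPM in DU145 GFP+, DU145 GFP-, PC3 GFP+ and PC3 GFP-, and ZNRF3 (-0.29 and 0.11) and DKK1 (0.54 and -0.24) passed in neither line.

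Of 13 tested repressors that recruit Groucho proteins, 2 rose and 2 fell in DU145, and 1 rose and 1 fell in PC3 (medians -0.27 and 0.19). HES1, a Notch-induced repressor that ends in the WRPW motif bound by TLE proteins, fell in both lines, with log2 differences of -0.92 ± 0.21 in DU145 (limma adjusted p = 0.0102) and -1.28 ± 0.21 in PC3 (0.00149). HES6, a relative that opposes HES1, fell in DU145 (-0.69 ± 0.13, limma adjusted p = 0.00466) and stood at 0.04 ± 0.13 in PC3, and the effects differed (-0.73 ± 0.19, adjusted p = 0.02). FOXA1, a pioneer factor of luminal cells, rose in DU145 from 0.266 to 1.06 CPM (2.17 ± 0.47, limma adjusted p = 0.00856), and RUNX1 rose in PC3 (0.52 ± 0.12, 0.0134).

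Of 14 TLE cofactors and regulators, 5 rose and 4 fell in DU145 (9 of 14, against 27.1% of all genes called), and none rose and 2 fell in PC3 (2 of 14, against 9.44%). HIPK2, a kinase that phosphorylates Groucho proteins, moved in opposite directions, from 30.2 to 61.2 CPM in DU145 (1.01 ± 0.12, limma adjusted p = 0.000328) and from 126 to 79.5 CPM in PC3 (-0.65 ± 0.13, 0.00474), and the effects differed by 1.66 ± 0.18 (6.59e-05). TBL1X, an exchange factor for corepressors that also binds β-catenin, fell in DU145 (-0.60, limma adjusted p = 0.00339) and stood at -0.35 in PC3 (0.0599). VCP, an ATPase that extracts ubiquitinated proteins, fell in DU145 (-0.51, limma adjusted p = 0.00152) and stood at 0.06 in PC3. The median of the list was 0.13 in DU145 and -0.05 in PC3.

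On the activating side, 7 tested genes of the Pygopus and ChiLS complex, which joins Pygopus to LDB1 and SSBP proteins at enhancers, gave 1 rise and 1 fall, both in DU145 (medians -0.06 in DU145 and 0.10 in PC3). ARID1A, a chromatin remodeller subunit, rose (0.22 ± 0.06, limma adjusted p = 0.0237) and SMARCB1, a core subunit of the same remodeller, fell (-0.46 ± 0.10, 0.0103). In PC3 they stood at 0.16 (limma adjusted p = 0.141) and 0.10 (0.655). SSBP3 did not pass in either line (-0.47 in DU145, 0.44 in PC3), but its effects differed (-0.90 ± 0.27, limma adjusted p = 0.0376), and SSBP4 stood at -0.33 and -0.08. Of 19 coactivators that bind the C-terminal part of β-catenin or act with it, 4 rose and 4 fell in DU145 (8 of 19, against 27.1%), and 1 rose in PC3 (1 of 19, against 9.44%), with medians of 0.06 and 0.02. CREBBP, a histone acetyltransferase, rose in DU145 (0.37 ± 0.07, limma adjusted p = 0.00375), where WDR5, a subunit of histone methyltransferase complexes, and RUVBL1, an ATPase, each fell by 0.36 (0.00777 and 0.0107). KMT2D, a histone methyltransferase, rose in PC3 (0.44 ± 0.07, limma adjusted p = 0.0019) and stood at 0.03 in DU145. Of 8 inhibitors of β-catenin, CTNNBIP1, also called ICAT, fell in DU145 (-0.79 ± 0.11, limma adjusted p = 0.000729). CBY1 fell in PC3 (-0.49 ± 0.14, limma adjusted p = 0.0396), and none of the 8 rose in either line (medians 0.13 and -0.06). SOX7 (0.08 in DU145, 2.31 in PC3) and APC (0.78 and -0.04) did not pass.

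The genes whose 12 log2 values most resembled a member were named as a description among 9066 genes, with Pearson's r over the 12 libraries. The libraries share the difference between the lines, which dominates these correlations. TLE1 resembled NOTCH1 (r = 0.995) and PMEPA1 (0.9943), BCL9 resembled CYP26B1 (0.9964) and AMOTL2 (0.9951), and BCL9L resembled RAB6B (0.9972) and ANXA6 (0.9963). TLE2 resembled KCNK6 (0.9937) and FBXO2 (0.988), which also had lower means in PC3 GFP+ (2.87 and 3.82 CPM) than in PC3 GFP- (8.16 and 7.49 CPM). TLE3 resembled FAF1 (0.9741) and PCMT1 (0.9719), and PYGO1 resembled CCP110 (0.9837) and NSRP1 (0.9811). TLE4, whose level separates the sorts more than the lines, resembled CREBBP (0.9438), the coactivator above, and HSPG2 (0.937), the perlecan gene, which averaged 228 and 50.7 CPM in DU145 GFP+ and GFP- and 186 and 121 CPM in PC3.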

How the data were processed

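RNA was sequenced in 12 libraries, and the authors deposited 1 table of log2 values, which the labels call normalized counts. STAR and DESeq2 appear in the submitters' processing notes with no version; genome build and counter: not given in the sources used here. The steps between low deposited log2 values are those of log2 CPM with 0.5 added to each count. Reversing that scale returned estimated counts, 86.9% whole within 0.01 in the median library. Columns without a sample numbered 0.

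All comparisons used limma 3.58.1 (R 4.3.3; 4 group means, 8 residual degrees of freedom, eBayes with trend, two-sided, Benjamini-Hochberg within each comparison at 0.05) over the 12527 genes at or above a log2 of 0 in 3 or more of the 12 libraries, all 8 members among them. Per-library medians were not forced equal. The fit was checked on simulated data. Count ratios have exact conditional 95% intervals. Positions, lengths and GC content were taken from GENCODE 29 (GRCh38; 18901 genes matched), and promoters from RefSeq.

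The members and lists were chosen with earlier results of these data known. Named genes are the 8 members, LEF1, AXIN2, up to 4 genes of each list with the smallest p in either sort comparison, and for each member called anywhere the 2 genes most correlated with it. A few genes named by it are not reported here. The neighbours of TLE2, TLE4 and PYGO1, CXCR5 and marker genes were named outside this rule. Deviations of same-numbered libraries correlated at -0.02 to 0.213 in DU145 and 0.0594 to 0.196 in PC3, so the numbers were not taken to pair them. Alternatives covered the replicate block, minimum, scaling, variance model, each line alone, voom, offset, GC and length trend and left-out libraries, and, added after seeing the data, BCL9L summed with CXCR5 and longest-transcript lengths.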

Additional observations from a re-analysis of the deposited data

Results flagged for a closer look

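In 2 of the 8 genes the sort effect differed between the lines by the interaction test in limma. For TLE2 the log2 fold change of GFP+ over GFP- in DU145 minus that in PC3 was 2.53 (adjusted p = 0.0345), with 5 counts in PC3 GFP+ and 30 in PC3 GFP-. For BCL9L it was -0.45 (adjusted p = 0.00941), with reads divided between it and the overlapping CXCR5, whose listed values were highest in PC3 GFP-.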

How the results depend on the processing

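Over 26 planned settings and the summed BCL9L and CXCR5 counts, no call reversed. Of the single-gene values, 769 kept their side of the threshold, 42 lost and 12 gained a call. The number of the 8 genes called in DU145, 1 as reported, became 2 with the replicate block (against 38.7% of all genes tested), 3 with equal medians (28.9%), 0 without both DU145 GFP+ 1 and 2 (1.35%), and 2 without both PC3 GFP- 2 and 3 (31.2%). In PC3, 3 as reported, it became 1 with eBayes without trend (8.25% of all genes), 0 with each line alone (7.57%; TLE2 fell below the minimum), 1 without both PC3 GFP- 2 and 3 (3.3%) and 4 with the GC and length trend removed (19.2%). For the difference between lines, 2 as reported, it became 1 with quantile normalization, eBayes without trend, voom or an offset of 8 counts (13.1%, 12.9%, 15.8% and 18% of all genes), 3 with equal medians (16.4%), 0 without both DU145 GFP+ 1 and 2 (5.2%), and 1 without both PC3 GFP- 2 and 3 (9.47%). Leaving out each library in turn gave 1 to 2 in DU145, 1 to 3 in PC3, 1 to 3 for the difference and 7 in every case between the lines. Except for the fits with fewer samples or genes, the cause was not tested.

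With the replicate block BCL9L was also called in DU145 (limma adjusted p = 0.0439), and the counts were 3 in PC3 (against 12.4% of all genes) and 3 for the difference (26.5%), TLE1 added. In PC3 every library correlated best with its own number, in DU145 not. The comparison between lines has no block fit, because the numbers are nested in the lines, and each line alone gives neither it nor the difference. A minimum of 4 left 6 genes to test. In PC3 TLE2 rests on 35 counts, so its depth limits the size of its change and not only its test.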
